A study of Homo sapiens with 6 samples.

Results

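The CCT chaperonin genes TCP1, CCT2, CCT3, CCT4, CCT5, CCT6A, CCT7 and CCT8 were followed through the splicing tables of an SFSWAP knockdown. Members were selected on their gene names and read depth, as the rows of these 8 genes with a mean of at least 20 inclusion plus skipping reads per library over both groups. This rule gave 15 of the 12867 retained introns and 184 of the 101163 skipped exon events that reach that depth in the whole series. The member exon events lie on 146 distinct exons, because an exon can be listed again with other flanking exons. CCT7 had no row in the intron table. A fall of a CCT5 exon was already known when the family was picked, so that result is a description of this family and not independent support for it.

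The cells were HEK293A-TOA, a human embryonic kidney line. Non-target siRNA (siNT) was given in 3 biological replicates and a mixture of siRNAs against SFSWAP (siSFSWAP) in 3, at 40 nM. The sample titles number the replicates of both groups alike, and whether equal numbers were paired is not stated. The mixture is given by the labels, and the study describes one of the SFSWAP siRNAs it used as ineffective. Polyadenylated RNA was collected after 5 days without any inhibitor, and the study made the comparison to learn what SFSWAP, a protein resembling splicing factors, does in human cells. Each table cell lists its 3 libraries without replicate numbers, and the letters a, b and c follow that order. Which list is siNT was taken from the way the study defines its difference in inclusion.

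Junction reads summed over all skipped exon events came to between 20820210 and 55274283 per siNT library and between 19515010 and 31980079 per siSFSWAP library. The deepest was siNT a. A read listed under several events counts more than once in this sum. Of the markers looked for in this line VIM averaged 283.5, KRT8 110.0 and KRT18 54.5 CPM of spliced reads (counts scaled to the library total) in siNT. INA and NEFM, also looked for as markers of the line, had no row. The blood and liver genes PTPRC, CD3E, ALB and HBB, looked for as absent, had no row either. A gene without a listed exon event has no row whatever its expression, so a missing row does not show absence. SFSWAP itself, read from its own spliced reads, stood at 79.7, 86.5 and 80.2 CPM in the siNT libraries and at 34.7, 34.6 and 21.3 in siSFSWAP. All siSFSWAP libraries were below all siNT libraries, at 36.8% of the siNT mean (log2 change −1.46, SE 0.162, adjusted p 0.000353).

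CCT, also called TRiC, is the chaperonin of the eukaryotic cytosol. It is a double ring in which each ring holds a copy of every one of these paralogous subunits, and it closes around unfolded proteins in an ATP-driven cycle. Actin and the tubulins are its best known clients, prefoldin hands such clients over to it, and the phosducin-like proteins act as its cofactors. TCP1 is the alpha subunit, CCT2 beta, CCT3 gamma, CCT4 delta, CCT5 epsilon, CCT6A zeta, CCT7 eta and CCT8 theta.

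Most exon events of these genes had high inclusion in both groups. Inclusion is the share of inclusion reads among the inclusion and skipping junction reads of an event, after division by their effective lengths. It sets a form against its own skipping junction only. Overlapping forms of an exon can therefore each be high, and the value is no share of all transcripts. Of the 184 member events 92 could be tested, which needed at least 5 reads of each form over the 6 libraries, and 88 of the other 92 had fewer skipping reads than that. The tested events had a median inclusion of 99.0% in siNT, against 87.8% over all 48100 tested events of the table. They were also deeper, with a median of 1831 reads in siNT a against 186 over all. How far the difference in inclusion follows depth, through the need for reads of each form, was not tested. The median change of the tested member events was −0.0527 percentage points, against 0.295 points over all, and 71 changed by less than 1 point. The 92 events lie on 85 distinct exons, of which 40 are in the GENCODE release 44 annotation and 29 are exons of the main (MANE) transcript. The others are forms with shifted splice sites, retained stretches or unlisted exons, and several share reads with an annotated exon.

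An event was called when its change reached 20 points at an adjusted p of 0.05 or less, the thresholds used in the study. By this rule 1 member event was lower, where 0.655% of all tested events were, and 0 were higher, where 1.44% of all were. By the adjusted p alone 6 member events were lower, where 2.17% of all were, and 1 was higher, where 3.25% of all were. The 6 lower events lie on only 3 exons, in CCT5, TCP1 and CCT3, and the higher one is in CCT2. No event of CCT4, CCT6A, CCT7 or CCT8 passed.

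**Figure D1:**
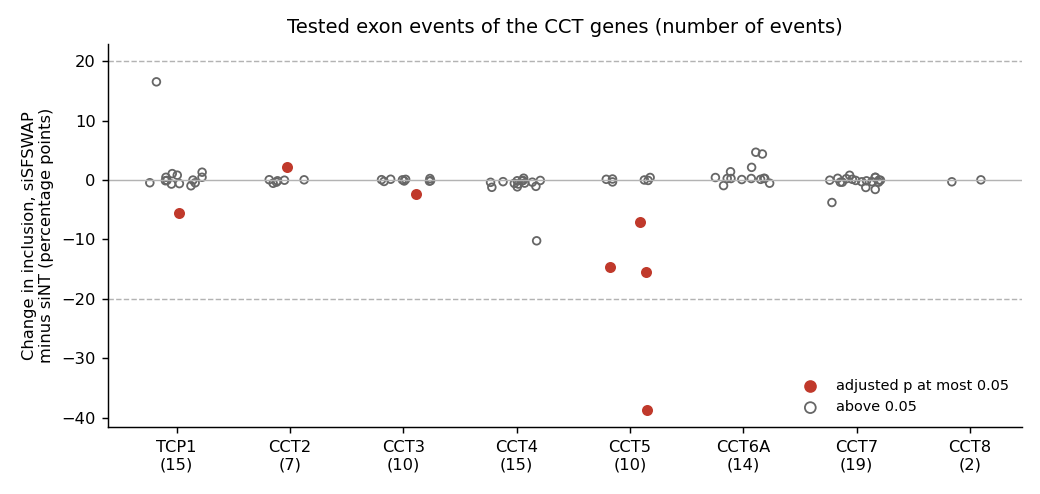
Change in inclusion (siSFSWAP minus siNT, percentage points, vertical axis) of each tested exon event by CCT gene (horizontal axis, number of events in brackets). Filled points have an adjusted p of at most 0.05 and dashed lines mark 20 points either way. Of the 92 points 71 lie within 1 point of 0, and the 4 filled points of CCT5 are forms of 1 exon.

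The CCT5 exon is number 3 of the 11 exons of the main transcript. It spans 165 nt in the coding sequence, chromosome 5 from 10254674 to 10254838 on the plus strand of GRCh38, the length of 55 codons. The table lists it with 5 acceptors and 1 donor. Joined to exon 2 it has forms of 201, 165, 73 and 21 nt that start at 10254638, 10254674, 10254766 and 10254818, and a 43-nt form from 10254796 is listed only with an upstream exon that ends at 10250445. The sequence is shown because all 5 acceptors lie within it, the AG of each and the GT of the donor being in capitals. It runs from 20 bases before the longest form to 6 bases after the exon.

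CCT5 exon 3, chr5:10254618-10254844, plus strand: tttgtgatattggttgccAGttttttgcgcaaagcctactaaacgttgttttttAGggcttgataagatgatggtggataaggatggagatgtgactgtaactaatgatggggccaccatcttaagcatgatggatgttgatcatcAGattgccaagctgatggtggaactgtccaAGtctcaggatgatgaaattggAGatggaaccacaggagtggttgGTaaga

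The second AG opens the 165-nt exon of the protein-coding transcripts. The third and the fourth open the 73-nt and 43-nt forms, each of which GENCODE lists in a transcript of the nonsense-mediated decay class. The first and the last, for the 201-nt and 21-nt forms, are not annotated. Splicing from exon 2 to exon 4 without exon 3 is annotated in 2 protein-coding transcripts.

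Reads that join exon 2 to exon 4 of CCT5 were more numerous after the knockdown. They numbered 29, 24 and 24 in siNT a, b and c, compared with 96, 92 and 138 in siSFSWAP a, b and c. Scaled to the sum of junction reads over all skipped exon events, in CPM, they were at 0.525, 1.02 and 1.15 in siNT and 3.00, 4.71 and 6.21 in siSFSWAP. The groups did not overlap, and the means were 0.900 ± 0.332 and 4.64 ± 1.61 CPM (SD, n = 3), a ratio of 5.16.

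Inclusion of the 165-nt exon was 99.2%, 98.6% and 98.5% in siNT and 94.9%, 91.9% and 88.5% in siSFSWAP. It thus fell in every siSFSWAP library below every siNT library, with a change of −7.04 points from 98.8% ± 0.389 to 91.8% ± 3.20 (SD, n = 3, SE of the change 1.86 points, adjusted p 6.87e-07). This exon stayed under the 20-point threshold. The event that met it was the 21-nt form, at 91.1%, 86.9% and 86.0% in siNT and 60.2%, 51.0% and 36.7% in siSFSWAP. Its change was −38.7 points (SE 7.01, adjusted p 3.05e-07), and those of the 201-nt and 73-nt forms were −14.7 (SE 3.42) and −15.4 points (SE 3.71). With limma on the log2 odds, which ignores depth, the adjusted p was 0.0734 for the 165-nt exon and 0.04 for the 21-nt form.

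The 4 forms joined to exon 2 do not measure 4 separate events. Their skipping reads are the same reads, 29, 24 and 24 against 96, 92 and 138, and their inclusion reads all include the junction from exon 3 to exon 4. For the 201-nt form the inclusion reads were 3105, 1499 and 1339 in siNT and 1453, 871 and 903 in siSFSWAP. A further event, the 165-nt exon joined to another upstream exon, has only that one junction in common with it, and its inclusion reads differed from these by at most 1 in any library. For the 73-nt form the inclusion reads were 34.9% of those of the 165-nt exon on average in siNT and 34.3% in siSFSWAP, and for the 21-nt form 5.31% and 5.02%. These ratios were close in the 2 groups. Because the forms share the junction to exon 4, the ratios cannot show whether the use of each acceptor changed. The skipping reads the forms are set against are common to all. The table does not give the reads of each junction, so how many used the 21-nt acceptor itself cannot be told from it. The 6 other tested CCT5 events changed by between −0.303 and 0.445 points, the lowest of them being the 43-nt form, at 99.4% in siNT and 99.1% in siSFSWAP.

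**Figure D2:**
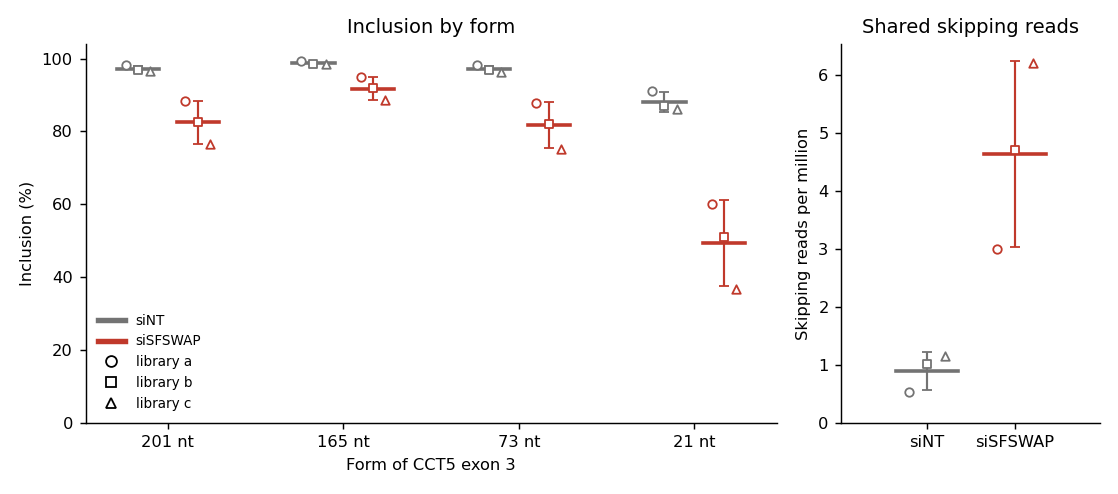
Left: inclusion (%) of the 4 forms of CCT5 exon 3 that are joined to exon 2, by form length, with 1 point per library, horizontal lines for group means and bars for the SD (n = 3). Right: the skipping reads all 4 forms share, in CPM. The 165-nt exon fell from 98.8% to 91.8% and the 21-nt form from 88.0% to 49.3%, while the shared skipping reads went from 0.900 to 4.64 CPM.

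The other 2 exons that fell are also early exons of the main transcripts. In TCP1 it is the 86-nt exon 2 of 12, and in CCT3 the 63-nt exon 4 of 14, the length of 21 codons. Both are shown with the acceptor AG and donor GT in capitals, 20 bases before and 6 after the exon, because in siNT at most 2 reads per library skipped each of them alone.

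TCP1 exon 2, chr6:159788052-159788163, minus strand: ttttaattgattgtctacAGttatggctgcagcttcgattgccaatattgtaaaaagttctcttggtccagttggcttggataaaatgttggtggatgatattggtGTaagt

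CCT3 exon 4, chr1:156334707-156334795, minus strand: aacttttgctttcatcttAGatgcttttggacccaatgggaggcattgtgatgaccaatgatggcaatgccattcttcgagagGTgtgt

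For TCP1 exon 2 there were 2, 1 and 2 skipping reads in the siNT libraries and 14, 15 and 23 in siSFSWAP, beside 1509, 735 and 728 and then 771, 456 and 471 inclusion reads. Inclusion fell from 99.7% ± 0.150 to 94.2% ± 2.54 (SD, n = 3), a change of −5.475 points (SE 1.47, adjusted p 0.000305). The groups did not overlap, with 99.5% as the lowest siNT value and 96.7% as the highest siSFSWAP value. Skipping of this exon is annotated in 3 protein-coding transcripts.

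For CCT3 exon 4 skipped alone, from exon 3 to exon 5, there were 1, 0 and 1 skipping reads in siNT and 13, 14 and 35 in siSFSWAP, beside 3972, 1768 and 1628 and then 2001, 1266 and 1320 inclusion reads. Inclusion fell by 2.28 points from 99.9% ± 0.0505 to 97.7% ± 1.63 (SD, n = 3, SE of the change 0.939 points, adjusted p 0.000305). The groups did not overlap here either, and siSFSWAP c gave the lowest inclusion of both exons. The same exon is also listed with an upstream exon that starts at 156335827, so that exons 3 and 4 are skipped at once, and there the skipping reads were 17, 9 and 6 in siNT and 6, 7 and 4 in siSFSWAP. Inclusion by that row was 98.6% ± 0.228 and 98.7% ± 0.464 (SD, n = 3, adjusted p 0.912), with overlap.

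In CCT2 the event that rose is a 259-nt stretch of chromosome 12, from 69585751 to 69586009, listed in a transcript of the retained intron class. It had 0, 1 and 0 inclusion reads in the siNT libraries and 4, 9 and 6 in siSFSWAP, beside 339, 160 and 165 and then 165, 131 and 125 skipping reads. Inclusion was 0.104% ± 0.180 and 2.29% ± 1.06 (SD, n = 3), a change of 2.18 points (SE 0.622, adjusted p 0.0116). The groups did not overlap, but the call was lost without siSFSWAP b (adjusted p 0.103) or c (adjusted p 0.0683).

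Several larger changes did not pass the test. An 11-nt form in TCP1 had 28, 20 and 18 inclusion reads with 5 skipping reads in each siNT library, and 19, 8 and 11 with 0, 1 and 0 in siSFSWAP. Its inclusion was 79.4% ± 3.64 and 95.9% ± 7.04 (SD, n = 3), 16.6 points apart without overlap, at an adjusted p of 0.17. This event had a mean of exactly 20 reads and is the shallowest member, and the deepest event left out by the rule, a 129-nt form in TCP1, had 16.2.

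A 14-nt form in CCT4, not annotated, had 2, 2 and 4 skipping reads in siNT and 10, 4 and 5 in siSFSWAP, with inclusion of 92.7% ± 5.89 and 82.5% ± 3.07 (SD, n = 3, adjusted p 0.142). In CCT6A an 83-nt exon and a 311-nt form that contains it share 2, 16 and 14 skipping reads in siNT against 0, 1 and 0 in siSFSWAP. Here siNT a lay with the siSFSWAP libraries, at 99.6% inclusion of the 83-nt exon against 93.7% and 92.8% in siNT b and c. The change of 4.40 points had an adjusted p of 0.0798 over all libraries and 9.71e-05 without siNT a, when it was 6.50 points. The largest changes of CCT7 and CCT8 were −3.77 points (adjusted p 0.374) and −0.281 points (adjusted p 0.919).

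**Figure D3:**
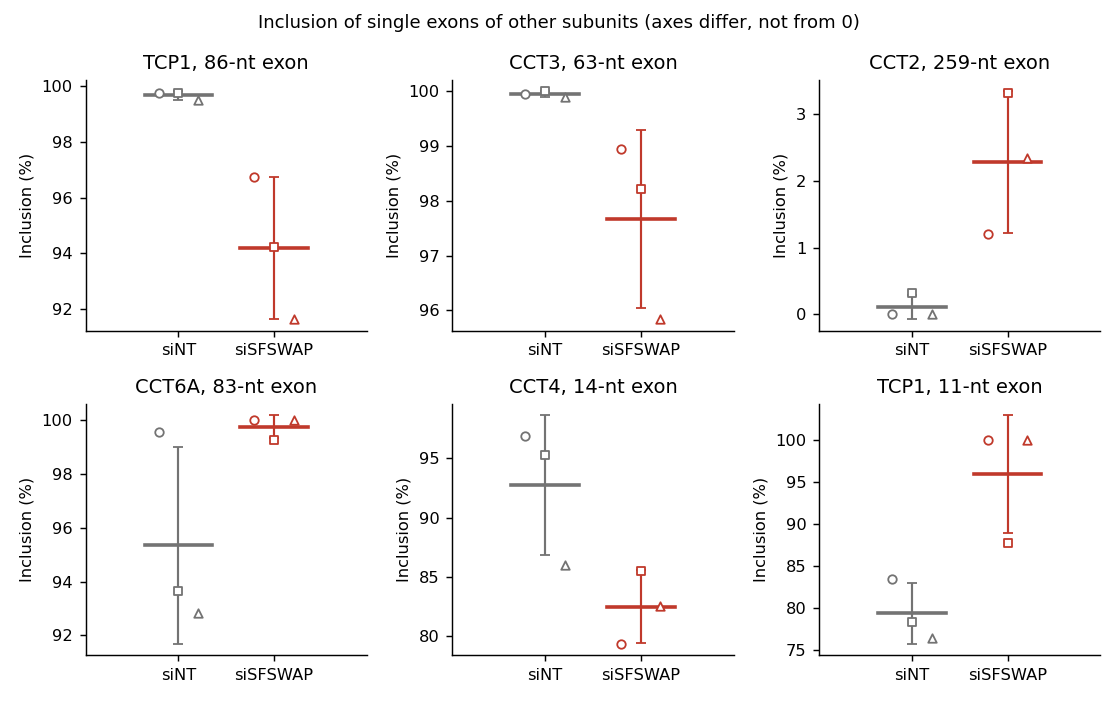
Inclusion (%) of 6 single exons of other CCT subunits, 1 point per library, with horizontal lines for group means and bars for the SD (n = 3). The axes differ and do not start at 0. The TCP1 86-nt, CCT3 63-nt and CCT2 259-nt exons passed the adjusted p, and for the CCT6A 83-nt exon siNT a lies at 99.6%, next to the siSFSWAP libraries.

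Retention of the tested CCT introns ranged widely, mostly at low levels, and none passed the test for a difference between the groups. Of the 15 member introns 12 were tested, the other 3 having fewer than 5 skipping reads. Their median retention was 1.78% in siNT against 8.78% over all 10155 tested introns, and 7 of the 12 were under 5%. These introns were also deeper, with a median of 1195.5 reads in siNT a against 180 over all tested introns. How far the lower retention follows depth was not tested. By both thresholds 0 were lower, where 1.61% of all tested introns were, and 0 were higher, where 0.148% of all were. By the adjusted p alone 0 were lower and 0 higher, where 2.86% and 0.364% of all were. An unadjusted p under 0.05 was reached by 0 of the 12, and by 0 with limma on the log2 odds. Of the 92 tested member exon events 21 reached it, and 23 with limma, though several of these events share reads. The shares over all tested introns and exon events were not computed, so these counts cannot be read as many or few. The tested member introns were mostly rich in A and T, with a median GC content of 28.9% and a range of 24.49 to 59.35%. The median over all tested introns was 55.4%.

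Among the tested introns of the main transcripts, 1 of CCT2 and 2 of CCT8 were the most retained in siNT. The 201-nt intron 12 of 15 in CCT2 (chromosome 12, 69597767 to 69597967) was at 17.0%, 15.3% and 15.4% in siNT and at 21.9%, 13.7% and 14.1% in siSFSWAP. The groups overlapped, and the change was 0.669 points (SE 2.71, adjusted p 0.843).

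In CCT8 3 introns were tested. The 113-nt intron 5 of 14 was at 11.1% ± 1.86 in siNT and 13.8% ± 3.24 in siSFSWAP, and the 74-nt intron 9 at 9.76% ± 2.09 and 12.1% ± 2.83 (SD, n = 3). Both overlapped between the groups. The 84-nt intron 10 was at 0.995%, 1.34% and 1.11% in siNT and at 2.15%, 1.95% and 1.49% in siSFSWAP, without overlap. Its 0.712-point change (SE 0.221) had the smallest adjusted p among the tested member introns, 0.395. How many of all tested introns lacked overlap was not counted.

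The remaining tested introns lay in 6 of the genes. A 123-nt stretch of CCT4 was at 8.34% ± 3.76 in siNT and 8.80% ± 2.79 in siSFSWAP (SD, n = 3), and a 262-nt stretch of CCT3, for which nearly all counted reads were inclusion reads, was at 98.1% and 100%. The others were introns of CCT2 (143 nt, 2.04% in siNT), CCT6A (98 nt, 1.52%), CCT3 (92 nt, 0.968%, and 167 nt, 0.598%), CCT5 (82 nt, 0.830%) and TCP1 (355 nt, 0.693%). Over all 12 the change ranged from −0.208 to 2.66 points. A 114-nt intron of CCT8 with a mean of 20 reads was the shallowest member, and a 126-nt one of CCT4 with 19.2 fell just outside.

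**Figure D4:**
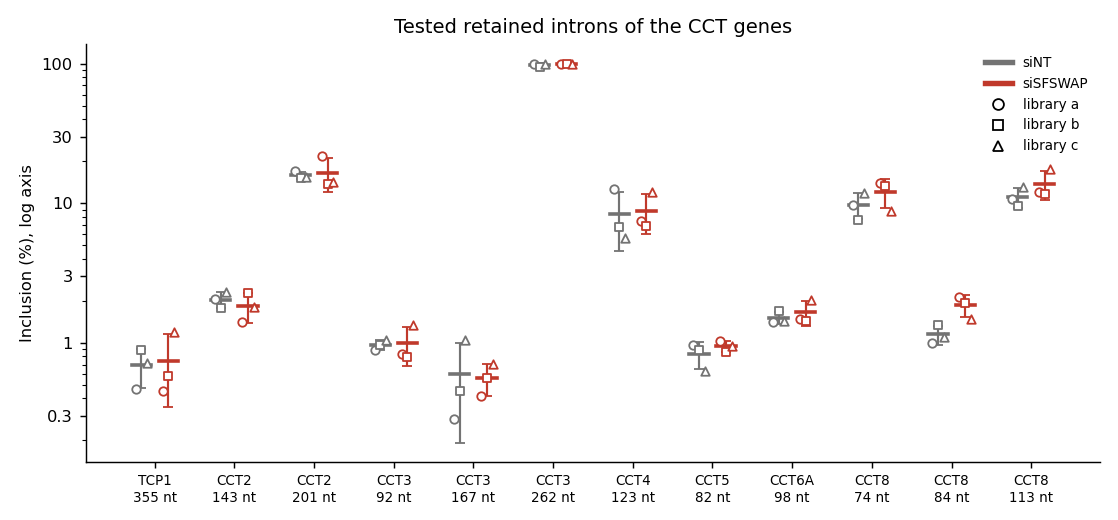
Retention (%, log axis) of the 12 tested introns of CCT genes, labelled by gene and length, with 1 point per library, horizontal lines for group means and bars for the SD (n = 3). The CCT8 84-nt intron had siNT at 0.995 to 1.34% and siSFSWAP at 1.49 to 2.15%, and no intron passed the test for a difference.

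Spliced reads were lower after knockdown in 7 of the 8 subunit genes, and CCT4 was the exception. Spliced reads are the inclusion plus skipping reads of a gene, with 1 event per exon, given in CPM. Both splicing and RNA abundance move them, and fewer cells of a type and less RNA per cell cannot be told apart in such bulk samples. At an adjusted p of at most 0.05, 7 subunits were lower and 0 higher, where 15.6% of the 10780 genes tested were lower and 14.7% higher. The median log2 change was −0.35 over the 8 genes and −0.0047 over all genes.

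CCT7 and CCT8 fell most. CCT7 had 1671, 1871 and 1904 CPM of spliced reads in siNT a, b and c, compared with 1402, 1352 and 1190 in siSFSWAP. This left it at 72.4% of the siNT mean, with no overlap (log2 change −0.47, SE 0.0771, adjusted p 0.00172). CCT8 had 417.8, 446.8 and 463.3 in siNT and 331, 307.9 and 326.4 in siSFSWAP, again without overlap, at 72.7% (log2 change −0.46, SE 0.0721, adjusted p 0.00134).

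Of the other subunits CCT2 went from 593.9, 710.2 and 732.2 CPM in siNT to 509.1, 534.9 and 499, or 75.8% of siNT (log2 change −0.39, adjusted p 0.00559). TCP1 had 473.1, 587.1 and 574.4 in siNT and 429.3, 432.2 and 407.8 in siSFSWAP, or 77.6% (log2 change −0.36, adjusted p 0.00983). Both were lower in every siSFSWAP library than in any siNT library, though without siNT b the TCP1 call was lost (log2 change −0.30, adjusted p 0.0556). CCT5 had 1348, 1557 and 1560 in siNT and 1179, 1211 and 1111 in siSFSWAP, or 78.4% (log2 change −0.35, adjusted p 0.00499). CCT6A had 772.8, 854.1 and 868.5 and then 668.9, 668.5 and 622.9, or 78.6% (log2 change −0.35, adjusted p 0.00435). The groups of these 2 genes were also apart. CCT3 had 1374, 1492 and 1479 and then 1212, 1199 and 1147, or 81.9% (log2 change −0.29, adjusted p 0.00591), the smallest fall of the 7. In each of these genes siNT a was the lowest siNT library and so lay nearest to the knockdown.

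CCT4 had 731.3, 763.5 and 778.8 CPM in siNT, compared with 767.1, 776.9 and 785 in siSFSWAP. The groups overlapped, and the siSFSWAP mean was 102.4% of the siNT mean (log2 change 0.04, SE 0.0618, adjusted p 0.694). Set against the mean of the other 7 subunits within each library, the log2 level of CCT4 was −0.19, −0.31 and −0.30 in siNT and 0.10, 0.12 and 0.22 in siSFSWAP. The values did not overlap between the groups, but CCT4 was singled out after its level was seen, so this is a description with no test.

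The lower values were found in nearly all listed exon forms of the 7 genes. Taking each form by itself, the mean CPM of spliced reads was lower in siSFSWAP for 18 of 18 forms of TCP1, 14 of 14 of CCT2, 24 of 24 of CCT3, 22 of 22 of CCT6A, 21 of 21 of CCT7, 14 of 14 of CCT8 and 15 of 16 of CCT5. In CCT4 this was so for 6 of 17. Several forms can overlap on the same exon, so these are not numbers of separate exons. The forms of 1 gene share its transcripts and in part the same reads, so these counts describe the genes and are no replicates. Such counts were not made for other genes.

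**Figure D5:**
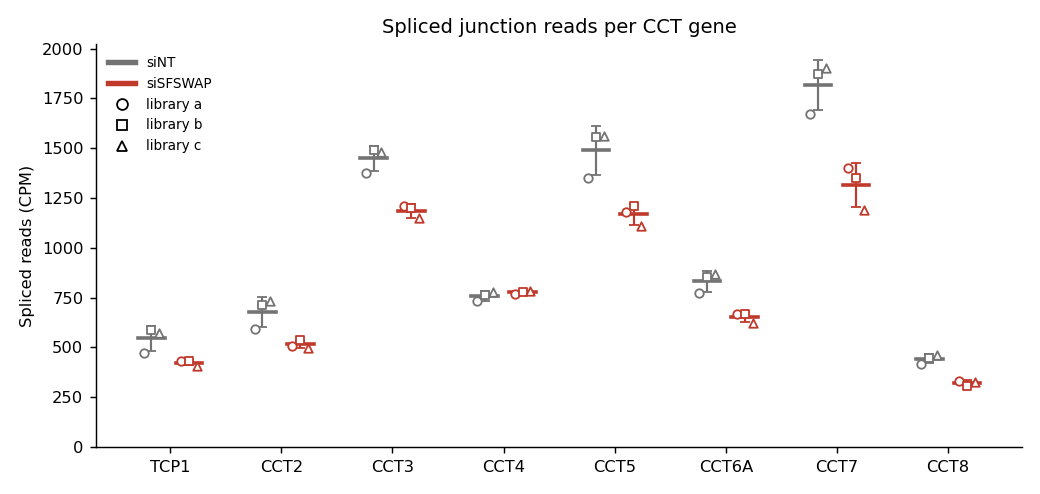
Spliced junction reads in CPM (vertical axis, from 0) for each CCT gene, with 1 point per library, horizontal lines for group means and bars for the SD (n = 3). In 7 genes spliced reads were lower at an adjusted p of at most 0.05 (limma-trend), where 15.6% of all genes tested were. CCT4 did not pass. Heights depend on the number of exons counted and are not to be compared between genes.

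Genes of CCT cofactors, of related chaperonins and of CCT clients were taken from lists and went both ways. Of 41 genes in 5 lists (prefoldin, phosducin-like cofactors, chaperonin-like and mitochondrial chaperonin genes, tubulin folding cofactors and clients) 36 had enough spliced reads, and 8 were lower and 4 higher, where 15.6% and 14.7% of all genes were. The median log2 change was −0.09. Of the 6 prefoldin subunits 3 were lower, namely PFDN6 at 61.0% of siNT (log2 change −0.70, adjusted p 0.0012), PFDN1 at 67.0% (log2 change −0.56, adjusted p 0.00357) and PFDN2 at 74.8% (log2 change −0.40, adjusted p 0.017). The prefoldin median was −0.31, and PFDN5 stood at 98.7% of siNT. HSPD1 and HSPE1, which form a separate chaperonin of the mitochondria with its co-chaperonin, were lower at 81.9% and 81.6% (adjusted p 0.0146 and 0.0221).

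None of the 3 phosducin-like cofactors and none of the 4 tubulin cofactors tested passed, with median log2 changes of −0.16 and −0.02. The 19 clients tested went both ways. TUBA1C and TUBB2B, tubulins, and CCNE1, cyclin E1, were lower at 58.2%, 60.8% and 79.4% of siNT (adjusted p 0.00427, 0.00241 and 0.0267). The activators of the anaphase-promoting complex CDC20 and FZR1, the G protein subunit GNB2 and the deacetylase HDAC3 were higher, at 147.3%, 144.8%, 132.1% and 123.7% of siNT (adjusted p 0.00228, 0.0117, 0.00491 and 0.0357). Paralogous tubulin genes may share reads, so their values are uncertain, as are those of CCT6A, which has a close paralog and pseudogenes.

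In splicing, 1 of 65 tested introns and 0 of 182 tested exon events of these partner genes were called lower, where 1.61% and 0.655% of all were, and 0 introns and 3 exon events higher, where 0.148% and 1.44% of all were. The intron is a 1043-nt stretch of HSPD1 (chromosome 2, 197494251 to 197495293), which fell from 67.4% ± 9.14 to 36.9% ± 11.2 (SD, n = 3, adjusted p 0.00504). Its skipping reads, 47, 40 and 41 in siNT and 85, 91 and 140 in siSFSWAP, are also those of 5 HSPD1 exon events that lie within it, which were lower by the adjusted p alone, at 0.000128 to 0.000267. The intron and these exons therefore rest on the same skipping reads. The exon events are 2 overlapping forms in FZR1, of 321 and 180 nt, and a 209-nt exon in TUBB6. FZR1 went from 62.6% ± 25.9 to 100% for the longer form (SD, n = 3, adjusted p 0.0424), and TUBB6 from 41.9% ± 13.1 to 81.8% ± 13.2 (SD, n = 3, adjusted p 0.0279). With limma on the log2 odds none of the 4 calls remained.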

How the data were processed

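Single-end reads had been trimmed by the authors (cutadapt 1.9.1), mapped to GRCh38 (STAR 2.7) and passed through rMATS, 3 libraries against 3. The deposited tables hold unnormalised junction read counts and inclusion fractions as lists of 3 libraries, and effective lengths. The authors' p-value with its FDR and their difference, a score, were deposited too and were not used. Group 1 was taken as siNT from the study's definition of that difference, and the SFSWAP reads check this. No source used here gives the strandedness, so overlapping antisense transcripts cannot be told apart.

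All events of each table were fitted together in R 4.3.3 by quasi-binomial regression of the counts, using two-sided F tests, with the dispersion moderated by limma 3.58.1 and floored at 1, and Benjamini-Hochberg adjustment over the table. Spliced reads were compared with limma-trend on log2(CPM + 0.5) over genes averaging at least 20 reads, so fold changes are on that scale. Both scripts were tested on simulated data. The events named were every tested intron, every called exon, the largest exon change of each gene, and exon changes of at least 5 points without overlap, and of partner genes the called events. The TCP1 86-nt, CCT3 63-nt, CCT2 259-nt and CCT6A 83-nt exons, the comparison of CCT4 with the other subunits and single partner genes were also named after their values were seen. Members and lists were chosen with earlier results of these data known. Alternatives covered read filters, thresholds, the test, scaling, pseudocount and leaving out each library. Counts from PCR-amplified reads without molecular identifiers are not independent molecules.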

Additional observations from a re-analysis of the deposited data

How the results depend on the processing

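Of the 184 member exon events 88 had fewer than 5 skipping reads and could not be tested. The 1 called member exon event stayed at 1 without any library, became 2 with a filter at 5 mean reads and 3 with a change threshold of 10 points. The event added by the read filter was a 41-nt form in CCT3 with a mean of 14 reads (39.5 points, adjusted p 0.0115). Its inclusion reads take in the junction that skips the CCT3 63-nt exon. The threshold of 10 points added the 201-nt and 73-nt forms of CCT5 exon 3. They share their skipping reads with the called 21-nt form and are no separate exons. By the adjusted p alone 7 member exon events became 3 with limma on the log2 odds and 11 without siNT a, which adds CCT4 and CCT6A events, and the range without single libraries was 6 to 11. The 3 were the CCT5 21-nt, TCP1 86-nt and CCT3 63-nt events, while the CCT5 201-nt, 165-nt and 73-nt forms had an adjusted p of 0.0605, 0.0734 and 0.0601, and the CCT2 259-nt exon 0.0556. Without single libraries the change of the CCT5 21-nt form ranged from −44.2 to −32.4 points, that of the 165-nt exon from −8.61 to −5.41, TCP1 from −6.74 to −4.20 and CCT3 from −2.92 to −1.37, with an adjusted p of at most 0.0123. The causes of these shifts were not tested.

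No member intron was called under any setting. Small intron changes turned sign: CCT3 167 nt became 0.0455 points with counts summed over the group, and without single libraries it ranged from −0.191 to 0.195, CCT2 143 nt from −0.439 to 0.00556, CCT2 201 nt from −1.98 to 2.09, CCT3 92 nt from −0.158 to 0.122, CCT4 123 nt from −1.15 to 2.60, CCT6A 98 nt from −0.0554 to 0.241 and TCP1 355 nt from −0.174 to 0.201. The 4 calls in partner genes became 1 with a mean of at least 50 reads, 0 with limma on the log2 odds and 0 to 5 without single libraries, being 2 without siNT b, 1 without siNT c, siSFSWAP a or siSFSWAP b, and 0 without siSFSWAP c. The 7 lower subunit genes became 6 without siNT b and stayed 7 under TMM scaling, a pseudocount of 5 CPM, a mean of at least 1 read, all events and, chosen after seeing the data, 1 event per gene. Count models on summed reads were not run. No paired analysis was possible because the columns carry no replicate numbers.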
